A study of Mus musculus with 3 samples.

Results

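The genes examined were 8 integrin chains and 2 TGF-beta receptors, chosen by symbol: Itgae, Itgb7, Itga4, Itga6, Itgb1, Itgal, Itgam, Itgb2, Tgfbr1 and Tgfbr2. All 10 were measured, each by 1 probe set with a single symbol in the platform annotation, among 10191 genes in all. RNA came from CD8+ T cells of 3 populations, CXCR3+ innate, CXCR3- innate and naive, with 1 Affymetrix array for each. Innate is the submitters' word for the CD8+ cells that they set apart from naive ones. All 3 were sorted after staining for CD44, CD62L and CD8 from spleen and lymph nodes of unchallenged C57BL/6 CXCR3-GFP Reporter mice, in which green fluorescent protein marks cells that express the chemokine receptor CXCR3. Per the labels, each RNA was taken from about 3 to 5 of these mice, which the extraction protocol also calls CIBER mice. The labels give neither sort gates nor the age of the mice, and every population carries the reporter. Values are log2 RMA expression values, on which a difference of 1 is 2-fold. With no population replicated, no difference could be set against a spread between replicates, no test was possible, and higher and lower refer to these 3 arrays.

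Integrins are paired alpha and beta chains that anchor cells to other cells or to matrix, and the pairing sets the ligand. CD103, the alpha E chain encoded by Itgae, pairs with the beta 7 chain and binds E-cadherin on epithelium. In mice it is carried by naive CD8+ T cells as well as by memory cells that reside in epithelial tissues, and TGF-beta raises its expression in T cells. TGF-beta signals through a complex of the type 2 receptor, which binds the ligand, and the type 1 receptor, which phosphorylates SMAD proteins.

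Of the 10 genes, 6 had a promoter window in the RefSeq table for GRCm38.p6, 7 windows in all. Those of Itga4 and Itgb7 are shown because their products pair as the gut-homing integrin alpha 4 beta 7 and their differences between arrays were close to each other. Each is the 250 bases before the annotated start, read 5′ to 3′ on the strand of the gene, and capitals mark matches to the motifs searched. The Itga4 window is chr2:79255176-79255425 on the plus strand and the Itgb7 window is chr15:102231936-102232185 on the minus strand.
Itga4: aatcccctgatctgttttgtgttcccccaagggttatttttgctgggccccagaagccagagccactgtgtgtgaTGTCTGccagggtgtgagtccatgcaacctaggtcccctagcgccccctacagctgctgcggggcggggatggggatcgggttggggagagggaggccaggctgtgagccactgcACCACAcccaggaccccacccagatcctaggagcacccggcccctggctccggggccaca
Itgb7: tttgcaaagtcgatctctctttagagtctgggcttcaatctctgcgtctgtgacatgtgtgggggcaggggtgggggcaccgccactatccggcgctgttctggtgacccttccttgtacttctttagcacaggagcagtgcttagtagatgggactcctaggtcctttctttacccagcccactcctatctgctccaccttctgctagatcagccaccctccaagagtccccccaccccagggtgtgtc
The motifs were the RUNX core TGTGGT, the SMAD-binding element CAGACA and the ETS core GGAAGT, each on both strands, and no match overlapped another. The Itga4 window held 1 RUNX core and 1 SMAD-binding element, both on the reverse strand, and no ETS core. The Itgb7 window held none of these letters. Over 32851 windows of this length, 14.0% held the RUNX core, 17.1% the SMAD-binding element and 19.7% the ETS core. These matches describe letters only, and the arrays measured no binding.

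Itgae had the widest span of the 10 genes. Itgae (probe set 17252574) read 7.15 on the CXCR3+ innate array, 8.04 on the CXCR3- innate array and 9.07 on the naive array. The naive array was highest and the CXCR3+ innate array lowest, below the median of its array, 7.63. The RMA value of Itgae was 3.78-fold lower in CXCR3+ innate cells than in naive cells, a log2 difference of -1.92, and 2 of 10191 genes had a difference as low or lower. The table holds no detection call, so whether values near 7, such as 7.15, lie above background is not known from it, and a fold against such a value may be understated. Its log2 difference was -1.03 in CXCR3- innate minus naive cells, where 20 genes were as low or lower. It was -0.89 in CXCR3+ innate minus CXCR3- innate cells, where 4 genes were as low or lower. Both comparisons with naive cells use the same naive array. In sorted bulk RNA, fewer cells with CD103 transcripts and fewer transcripts per cell cannot be told apart.

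Itgb7 encodes the chain that pairs with CD103. Itgb7 (probe set 17322163) read 8.97 on the CXCR3+ innate array, 9.23 on the CXCR3- innate array and 9.60 on the naive array, the same order as Itgae. Its log2 difference was -0.63 in CXCR3+ innate minus naive, -0.37 in CXCR3- innate minus naive and -0.26 between the innate populations. After quantile normalization it was -0.22 in CXCR3- innate minus naive. The difference of Itgae was lower than that of Itgb7 by 1.28 on the log2 scale in CXCR3+ innate minus naive, with the same limit on the low Itgae value. Of all genes, 0.638% had a difference as low as that of Itgb7 in this comparison.

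Itga4 encodes the alpha 4 chain, which pairs with beta 7 to bind MAdCAM-1 on gut venules and with beta 1 to bind VCAM-1. Itga4 (probe set 17372307) read 8.78 on the CXCR3+ innate array, 9.12 on the CXCR3- innate array and 9.55 on the naive array. The order was again that of Itgae, and the log2 difference was -0.77 in CXCR3+ innate minus naive, as low or lower in 34 genes. It was -0.43 in CXCR3- innate minus naive, as low or lower in 482 genes, and -0.34 between the innate populations. After quantile normalization it was -0.28 in CXCR3- innate minus naive.

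Itgb1 encodes the beta 1 chain, partner of alpha 4 and alpha 6, and ran the other way. Itgb1 (probe set 17507014) read 7.84 on the CXCR3+ innate array, 7.23 on the CXCR3- innate array and 7.16 on the naive array. The CXCR3+ innate array stood apart above the others, and the other values lay below the medians of their arrays and near 7, so the differences against them may be understated too. The log2 difference was 0.68 in CXCR3+ innate minus naive, as high or higher in 41 genes, and 0.61 in CXCR3+ innate minus CXCR3- innate. It was 0.07 in CXCR3- innate minus naive, where 12.6% of genes were as high or higher. In CXCR3+ innate minus naive cells the difference of Itgb1 exceeded that of Itgb7 by 1.31 on the log2 scale, and the range over the processing alternatives was 1.21 to 1.31. The same contrast was 0.44 in CXCR3- innate minus naive, or 0.28 after quantile normalization, and 0.87 between the innate populations.

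Itga6 encodes the alpha 6 chain, which pairs with beta 1 as a laminin receptor. Itga6 (probe set 17371800) read 8.18 on both innate arrays and 8.62 in naive cells. The log2 difference from naive was -0.44 for both innate populations, a pattern without the step between the innate arrays seen in Itgae, Itgb7 and Itga4. Of all genes, 2.03% were as low or lower in CXCR3+ innate minus naive and 4.35% in CXCR3- innate minus naive.

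**Figure D1:**
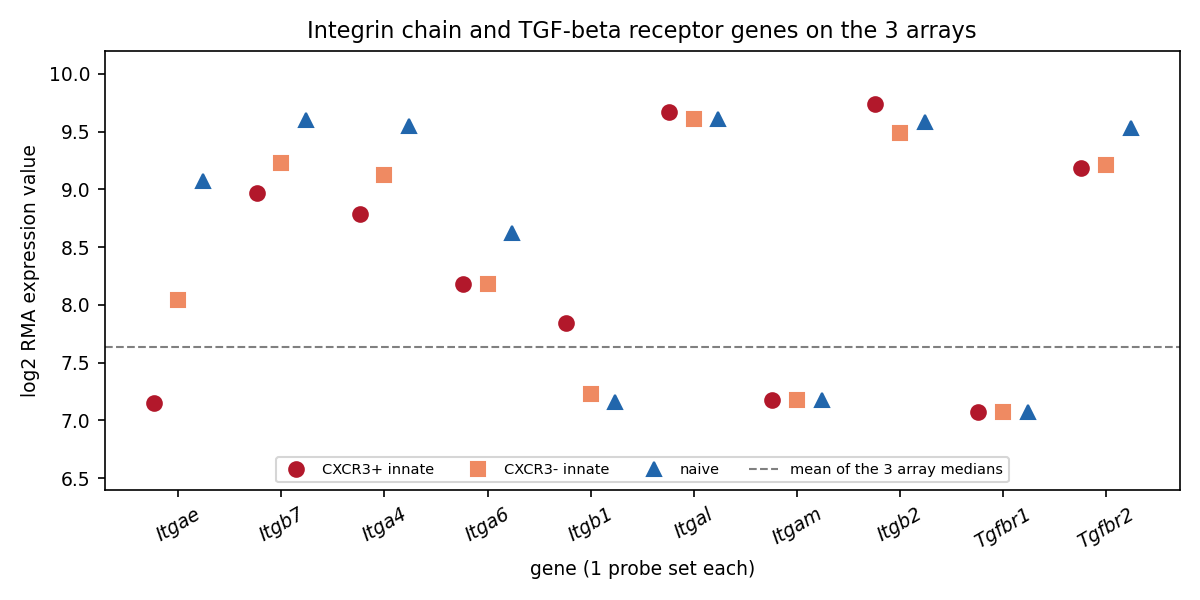
Log2 RMA values (vertical axis) of the 10 genes on the CXCR3+ innate, CXCR3- innate and naive arrays, 1 point per array with no error because no population was replicated. Itgae spans 7.15 to 9.07, Itgb7 and Itga4 follow the same order over a smaller span, and Itgb1 is highest on the CXCR3+ innate array.

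The beta 2 integrins showed small differences. LFA-1, the pair of Itgal and Itgb2 products, binds ICAMs and holds T cells to antigen-presenting cells. Itgal (probe set 17483264) read 9.67 in CXCR3+ innate and 9.61 in both other populations, a log2 difference of 0.06 that was 0.16 after quantile normalization. Itgb2 (probe set 17234647) read 9.74 on the CXCR3+ innate array, 9.49 on the CXCR3- innate array and 9.58 on the naive array. Its log2 difference was 0.15 in CXCR3+ innate minus naive, 0.25 in CXCR3+ innate minus CXCR3- innate and -0.10 in CXCR3- innate minus naive. After quantile normalization the first of these was 0.26 and the last 0.07, so no direction is given for the last. In the comparison of the innate populations 6.41% of genes were as high or higher than Itgb2.

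Itgam encodes the alpha M chain of Mac-1, carried by myeloid cells, natural killer cells and some effector T cells. Itgam (probe set 17483577) read 7.18 on all 3 arrays, below each array median. Exactly equal values were common in this table: 45.0% of genes were equal in CXCR3+ innate and naive cells, 42.1% in CXCR3- innate and naive cells and 49.0% in the innate populations. An equal value therefore does not show equal expression, and this holds for Itgam and for the ties of Itga6, Itgal and Tgfbr1.

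Tgfbr2 encodes the receptor that binds TGF-beta. Tgfbr2 (probe set 17531987) read 9.19 on the CXCR3+ innate array, 9.21 on the CXCR3- innate array and 9.53 on the naive array. Both innate arrays were below the naive array and close to each other. The log2 difference was -0.35 in CXCR3+ innate minus naive, -0.33 in CXCR3- innate minus naive and -0.02 between the innate populations. After quantile normalization the last 2 of these were -0.18 and -0.08. As low or lower were 4.01% of genes for CXCR3+ innate and 8.20% for CXCR3- innate against naive cells. Tgfbr1 (probe set 17413915), the signalling partner, read 7.08 on both innate arrays and 7.07 in naive cells, below each array median. Its difference of 0.0067 from naive turned negative after quantile normalization and cyclic loess.

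By the rule of size a gene was called when its log2 values differed by at least 1 and the higher value reached the median of its array. In CXCR3+ innate minus naive, 1 of the 10 genes, Itgae, was called, and it was lower, against a background of 0.0981% of all genes called lower, 0.137% higher and 0.236% in either direction. In CXCR3- innate minus naive, Itgae alone was called lower, at a background of 0.226%, and not after quantile normalization at -0.92, centring on the median at -0.998 or a linear offset at -0.99. Between the innate populations none of the 10 was called, at a background of 0.157%. With a 1.5-fold threshold, 4 of the 10 were called in CXCR3+ innate minus naive. They were Itgae, Itgb7 and Itga4 on the lower side, against 0.697% of all genes, and Itgb1 on the higher side, against 0.5%. At that threshold Itgae alone was called lower in CXCR3- innate minus naive, against 1.6% of all genes. Between the innate populations Itgae was called lower, against 0.0785% of all genes, and Itgb1 higher, against 1.0%. The 10 genes were picked with earlier results of these arrays known, so these shares describe them and do not test them.

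Over the 10 genes, 5 were lower, 4 higher and 1 equal in CXCR3+ innate minus naive, with a median difference of -0.17. Over all genes 34.2% were lower and 20.7% higher, and the median difference was 0.00. In CXCR3- innate minus naive, 6 were lower, 2 higher and 2 equal, with a median of -0.21. Over all genes 36.3% were lower and 21.6% higher there. Between the innate populations 4 were lower, 3 higher and 3 equal, with a median of 0.00, and 22.3% of all genes were lower and 28.7% higher.

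**Figure D2:**
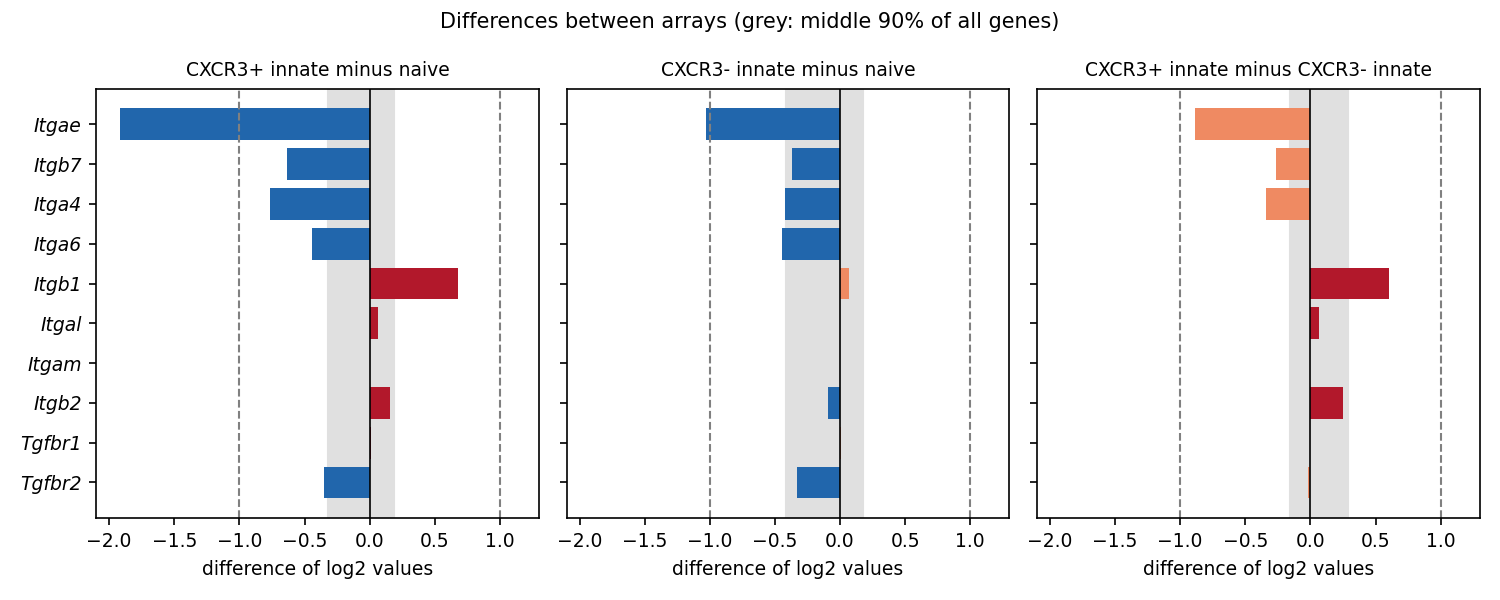
Differences of log2 values (horizontal axis) for the 10 genes in the 3 comparisons, 1 bar per gene coloured by the population with the higher value, dashed lines at 1 and -1, and a grey band over the middle 90% of all genes. Itgae reaches -1.92, -1.03 and -0.89, and Itgb1 lies beyond the band at 0.68 and 0.61 in both comparisons of CXCR3+ innate cells.

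Other TGF-beta family receptors were examined next, 6 of 13 listed genes being measured. None was called by the rule of size. Tgfbr3 encodes betaglycan, a co-receptor that presents TGF-beta to the type 2 receptor. Tgfbr3 read 6.85 on the CXCR3+ innate array, 7.39 on the CXCR3- innate array and 7.76 on the naive array, a log2 difference of -0.91 in CXCR3+ innate minus naive. It was -0.37 in CXCR3- innate minus naive and -0.54 between the innate populations. Both innate values of Tgfbr3 lay below the medians of their arrays, and 6.85 lies below 7, so differences against it may be understated too. Eng, which encodes the co-receptor endoglin, read 7.11, 7.43 and 7.60 on the CXCR3+ innate, CXCR3- innate and naive arrays, below each array median, and differed by -0.49 in CXCR3+ innate minus naive. Both co-receptors had the array order of Itgae. The list median, with Tgfbr1 and Tgfbr2 included, was -0.17 in CXCR3+ innate minus naive, -0.09 in CXCR3- innate minus naive and -0.01 between the innate populations.

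SMAD genes and their regulators had 24 of 27 measured, and none was called in any comparison. In CXCR3+ innate minus naive, 18 were lower, 1 higher and 5 equal, and the median difference was -0.10. In CXCR3- innate minus naive, 16 were lower and 2 higher, with a median difference of -0.08. After quantile normalization these medians were -0.06 and -0.01. Nedd4l, a ubiquitin ligase that acts on activated SMADs, differed most, by -0.62 between CXCR3+ innate and naive cells and by -0.40 between CXCR3- innate and naive cells. Smad4, the shared partner of receptor-activated SMADs, differed by -0.45 and -0.20 in the same comparisons, the -0.20 being 0.0071 after quantile normalization. Trim33, a SMAD4 regulator, differed by -0.41 and -0.42, and Strap, a TGF-beta receptor-associated protein, by -0.24 and -0.45. The 1 gene with a positive difference in CXCR3+ innate minus naive was Smad3, a receptor-activated SMAD, named after its values were seen. Smad3 read 8.30 in CXCR3+ innate and 7.89 in both CXCR3- innate and naive cells. Of 15 genes for TGF-beta ligands and their activation, 7 were measured, and 6 were equal in CXCR3+ innate and naive cells. Tgfb1, the TGF-beta isoform typical of immune cells, read 9.03, 8.97 and 9.03 on the CXCR3+ innate, CXCR3- innate and naive arrays. Ltbp2, of the latent TGF-beta binding protein family, differed by 0.03 in CXCR3+ innate minus naive. The list median was 0.00 in each comparison.

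Among the other integrin chains, 5 of 18 were measured: Itga2b, Itga7, Itgav, Itgb4 and Itgb8. Of these, Itga2b differed by 0.03 in either innate population minus naive, and the other values were equal on all 3 arrays, with a median of 0.00. Of 35 integrin activation and adaptor genes, 25 were measured and none was called. In CXCR3+ innate minus naive, 17 were lower, 2 higher and 6 equal, and the median was -0.08. In CXCR3- innate minus naive, 20 were lower, 1 higher and 4 equal, with a median of -0.10. After quantile normalization these medians were -0.0068 and -0.0053. Rap1b, a small GTPase that switches integrins to high affinity, read 10.88 on the CXCR3+ innate array, 10.67 on the CXCR3- innate array and 11.35 on the naive array, so its CXCR3- innate array was lowest, with a log2 difference of -0.68 from naive. Rasgrp2, an exchange factor for Rap1, differed by -0.32 in CXCR3+ innate and -0.47 in CXCR3- innate minus naive. Sharpin, an inhibitor of beta 1 integrin activation, differed by -0.37 and -0.54 in the same comparisons. Fyb, an adaptor that couples the T cell receptor to integrins, differed by -0.44 and -0.21, the -0.21 being -0.0061 after quantile normalization. Of 22 ligands and counter-receptors, 8 were measured, with a median of 0.00 in each comparison. Thy1, a surface glycoprotein of T cells, differed by -0.31, or -0.16 after quantile normalization, and Icam2, a ligand of LFA-1, by -0.30 in CXCR3- innate minus naive. Icam1, another LFA-1 ligand, differed by 0.16 between the innate populations, and the collagen gene Col1a1 by 0.02 in CXCR3+ innate minus naive.

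A list of genes tied to tissue residency of CD103+ T cells mixes genes that favour residency with genes that oppose it or are low in resident cells, such as Tbx21, Eomes and Klf2, so its counts carry no direction for residency. Of 31 listed, 23 were measured, and 9 were lower, 10 higher and 4 equal in CXCR3+ innate minus naive. The 3 called genes were all higher there, against 0.137% of all genes: the chemokine gene Xcl1 at 1.34, the transcription factor genes Tbx21 at 1.31 and Bhlhe40 at 1.12. None was called at 2-fold in CXCR3- innate minus naive or between the innate populations. With the 1.5-fold threshold, 4 genes of the list were called higher in CXCR3+ innate minus naive, against 0.5% of all genes. Another 2 were called lower, against 0.697%. These were Ccr7 at -0.81 and S1pr1 at -0.79, named after their values were seen. Of 14 transcription factor genes listed as candidate regulators of Itgae, all 14 were measured, and 8 were lower, 3 higher and 3 equal in CXCR3+ innate minus naive. These too include activators and repressors. T-bet and Eomes, the products of Tbx21 and Eomes, are known in mice to hold back CD103+ residency. Tbx21 read 8.68 on the CXCR3+ innate array, 7.98 on the CXCR3- innate array and 7.37 on the naive array, the reverse order of Itgae. Eomes read 7.92, 7.77 and 7.06 on the same arrays, also reversed. Satb1, a chromatin organiser, differed by -0.44 and Smad4 by -0.45 in CXCR3+ innate minus naive, both in the order of Itgae as deposited. Runx1 and Foxo1 also had that order as deposited. Runx1 read 7.77, 7.80 and 7.91 on the CXCR3+ innate, CXCR3- innate and naive arrays, and Foxo1 9.45, 9.55 and 9.68. The difference of Foxo1 in CXCR3- innate minus naive ranged from -0.13 to 0.06 over the processing alternatives. The rest of the list had neither order as deposited. On the CXCR3+ innate, CXCR3- innate and naive arrays Runx3 read 8.61, 8.42 and 8.81, and Cbfb 7.83, 7.60 and 8.01. Smad3 was highest on the CXCR3+ innate array and equal on the others. Runx1, Foxo1, Runx3, Cbfb and Smad3 were named here after their values were seen. The regulator list was chosen with earlier results known, and its order against Itgae over 3 arrays was not tested.

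**Figure D3:**
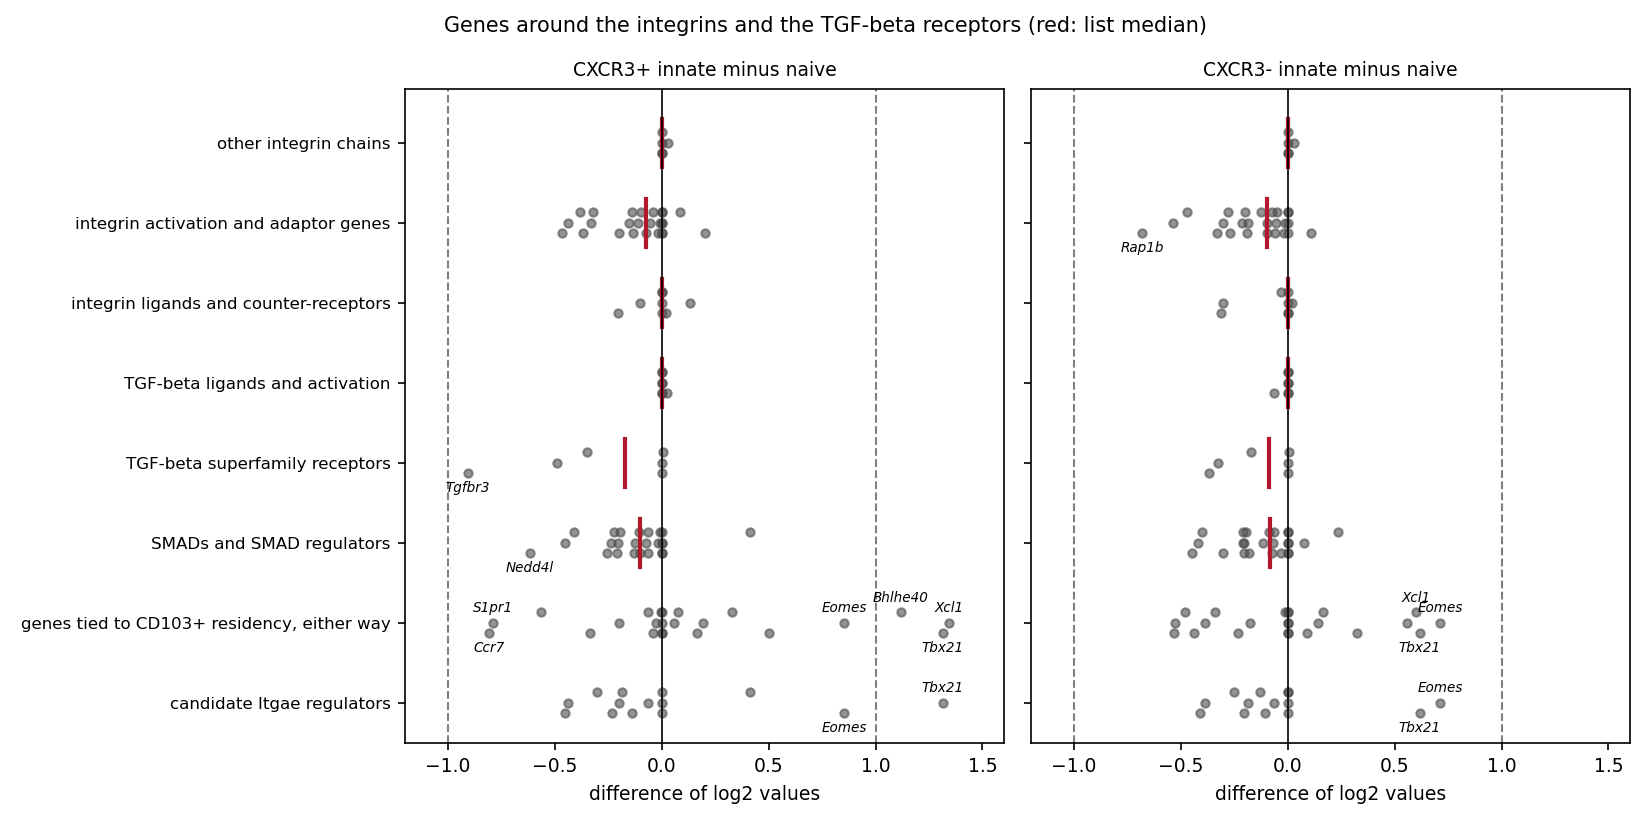
Differences of log2 values (horizontal axis) for the measured genes of 8 lists, with CXCR3+ innate (left) or CXCR3- innate cells (right) minus naive cells, 1 point per gene, with dashed lines at 1 and -1, and with the list median in red except for the residency and regulator lists, which mix opposing genes. Tgfbr3 is at -0.91 in CXCR3+ innate minus naive, and Xcl1, Tbx21 and Bhlhe40 lie past 1.

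Likeness to Itgae was measured as the root mean square distance between centred log2 values over the 3 arrays, among 4577 genes with a value at or above an array median. The nearest gene was Ifngr2, which encodes an interferon gamma receptor chain, at 0.118. Ifngr2 read 7.76 on the CXCR3+ innate array, 8.91 on the CXCR3- innate array and 9.92 on the naive array. The next were Rab3ip at 0.278, Igfbp4, which encodes a binding protein of insulin-like growth factors, at 0.298, Trib2 at 0.310 and Als2cl at 0.337. All had the naive array highest and the CXCR3+ innate array lowest, which reflects their choice by nearness to Itgae. Quantile normalization, cyclic loess and leaving out the filter on dim genes each kept 4 of these 5. Tgfbr3 ranked 9 at 0.419, Itga4 24 at 0.470, Itgb7 45 at 0.525, Itga6 151 and Tgfbr2 293. The distance of Itgb1 was 1.06, at rank 4551. With 3 values per gene, a small distance describes these arrays only.

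**Figure D4:**
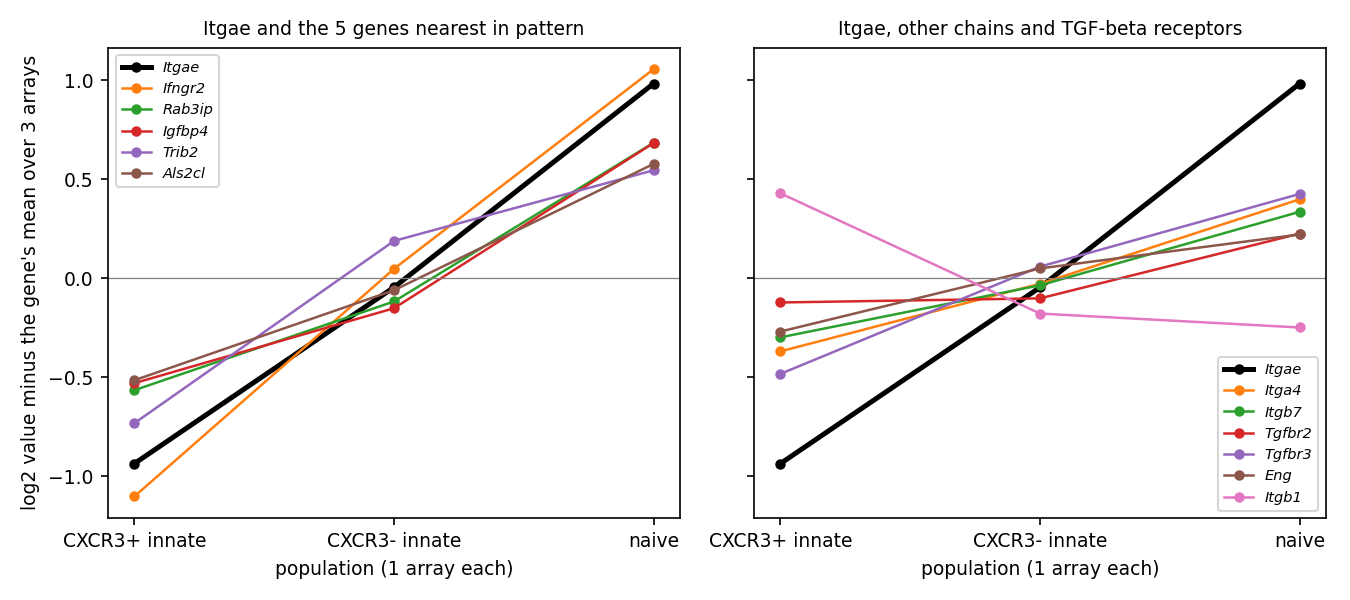
Log2 values minus each gene's mean over the 3 arrays (vertical axis) by population, for Itgae with its 5 nearest genes (left) and with other integrin chains and TGF-beta receptors (right). Itga4, Itgb7, Tgfbr3 and Eng follow the order of Itgae over a smaller span, Tgfbr2 is level between the innate arrays, and Itgb1 runs the other way.

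The labelled cell type was checked against its markers. Of 10 CD8+ T cell markers, 7 were measured and lay at 8.31 or above on every array. Relative to naive cells their differences ran from -0.38 to 0.09 for CXCR3+ innate cells, with a median of -0.24, and from -0.93 to 0.00 for CXCR3- innate cells, with a median of -0.30. Dendritic cells can also carry CD103, and 3 of their 10 markers were measured, with means of 7.24 on the CXCR3+ innate array, 7.28 on the CXCR3- innate array and 7.21 on the naive array. Myeloid markers had 5 of 10 measured, with means of 7.59, 7.68 and 7.62 in that order. Natural killer cell markers had 3 of 10 measured, with means of 7.39, 7.40 and 7.06, and the gap to naive came mostly from Eomes. CD4+ and regulatory T cell markers had 2 of 7 measured, with means of 7.27, 7.56 and 7.41 in the same order. Gamma-delta T cell markers had 1 of 9 measured, Sox13 at 7.75, 7.79 and 7.75. B cell markers had 1 of 10 measured, Ighm at 8.26, 8.34 and 8.07. Of the stromal and endothelial list, 5 of 7 were measured, with means of 7.37, 7.45 and 7.50, and Pecam1, which T cells also express, moved with Itgae at 7.80 on the CXCR3+ innate array, 8.23 on the CXCR3- innate array and 8.68 on the naive array. The part of these cell types in the differences was not tested.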

How the data were processed

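Gene expression was measured on 1 Affymetrix array for each of 3 CD8+ T cell populations. The authors deposited log2 expression values and the submitters' processing notes name RMA and Affymetrix Expression Console. Their versions and the array's genome build are not given in the sources used here. The deposited table holds 12417 probe sets, each reaching 7 on at least 1 array, so other genes were not analysed here. The platform annotation gave 1 symbol to 10576 of them, several to 1108 and none to 733. Only the first kind was named, and averaging the probe sets of 273 genes left 10191 genes. The number of arrays limits the precision.

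Differences of log2 values were called by the rule of size in the text. Alternatives were a 1.5-fold threshold, leaving out the filter on dim genes, the brightest probe set per gene, a linear offset of 16, and arrays scaled by quantiles, by cyclic loess or to a common median. All 10 genes were described, and of each list the called genes and up to 4 with the largest absolute difference were named. The 5 genes nearest to Itgae in pattern were named too. That search left out, by symbol, predicted and Rik genes, small RNAs and receptor segments. It also left out all symbols starting with Rn, Hist, Olfr or Vmn, which include protein-coding genes. The genes, lists and rules were chosen with earlier results of these data known. The code of the rule was run on simulated data with changes set larger than the threshold and little noise. Such data cannot show how often the rule errs on these unreplicated arrays. Versions were R 4.3.3 with limma 3.58.1 for scaling, and Python 3.11.15 with pandas 2.3.3, numpy 2.4.6 and matplotlib 3.10.9.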

Additional observations from a re-analysis of the deposited data

How the results depend on the processing

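No paired analysis was possible because each population had 1 array, and for the same reason no replicate could be left out. Each of the 10 genes had 1 probe set, so taking the brightest probe set changed none of their values. With a 1.5-fold threshold 4 of the 10 genes were called in CXCR3+ innate minus naive and 2 between the innate populations, and over all genes 122 were called in CXCR3+ innate minus naive, against 24 at 2-fold, 173 in the CXCR3- innate comparison with naive, against 25, and 110 between the innate populations, against 16. In CXCR3- innate minus naive 0 of the 10 genes were called with a linear offset, with arrays centred on their medians, or with quantile normalization. The median of the 10 was -0.094 with the last of these, which left 2 genes called higher and 9 lower in all, against 2 higher and 23 lower as deposited. The cause of these shifts was not tested. Over the 7 alternatives Itgae ranged from -1.92 to -1.81 in CXCR3+ innate minus naive, Itga4 from -0.77 to -0.69, Itgb7 from -0.63 to -0.53, Itgb1 from 0.62 to 0.69 and Tgfbr2 from -0.35 to -0.26. In CXCR3- innate minus naive Itgae ranged from -1.03 to -0.92, Itgb7 from -0.37 to -0.22, Itga4 from -0.43 to -0.28 and Tgfbr2 from -0.33 to -0.18. The median of the integrin activation and adaptor genes ranged from -0.10 to -0.0053 there, with 13 to 20 genes lower, and that of the SMAD list from -0.09 to -0.01. Differences of Itgal, Itgam, Itgb2, Itga6 and Tgfbr1 at or near 0 changed sign or left 0 under at least 1 scaling in at least 1 comparison.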
